A study of Mus musculus with 25 samples.

Results

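The livers of metformin-treated and untreated mice were compared at 39 weeks of age, with both genotypes of the study in 1 model. All 17 mice of the older cohort were used, out of 25 mice in the whole series. The 8 treated mice, 5 labelled Ncoa5+/- and 3 wild type, took metformin in their drinking water at a stated dose near 250 mg per kg per day, begun at 8 weeks of age and kept up for 31 weeks. The 9 untreated mice, 5 labelled Ncoa5+/- and 4 wild type, had the same age, the C57BL/6 strain and the standard diet. Ncoa5+/- mice carry a targeted copy of Ncoa5, which encodes a nuclear receptor coactivator, in every group that bears this label, treated or not. Which part of the gene is missing is not given in the labels. RNA came from whole frozen liver, so each value is an average over all cell types of the organ. The level of each locus was given as FPKM, fragments per kilobase of transcript scaled to the size of the library, and was analysed as log2(FPKM + 1). The additive model held a genotype term and a metformin term, so each difference below is metformin minus untreated at equal genotype, and a gene was called when its Benjamini-Hochberg adjusted p by limma was under 0.05.

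Metformin is a biguanide used to lower blood glucose, and the liver is its main site of action. Hepatocytes take it up through organic cation transporters. It is known to slow complex I of the mitochondrial respiratory chain, to activate the energy-sensing kinase AMPK and to reduce glucose output, and active AMPK restrains fatty acid synthesis and favours the import of fatty acids into mitochondria. The study's title names p21, the product of Cdkn1a, and the prevention of liver cancer by the drug.

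The libraries differed in ways that touch the results. The FPKM sum ran from 857291 to 1647880 in treated mice and from 991881 to 2089981 in untreated mice, and read counts were not used here, so depth in reads is unknown. The 50 highest loci took 43.1% to 72.5% of that sum in treated livers and 54.9% to 78.3% in untreated livers. On the leading principal component, which held 11.8% of the variance, untreated wild type replicate 2 scored 45.4 and the other 16 mice lay between -19.4 and 15.1. Ncoa5 itself stood at 3.07 to 6.64 FPKM in treated mice and at 2.63 to 4.68 FPKM in untreated mice, with a metformin difference of 0.01 ± 0.10 on the log2 scale (SE, n = 8 and 9, adjusted p = 0.973), and its level did not separate the genotype labels. Genotypes are therefore given as labelled. The animal numbers in the sample titles nearly separated the treatments, with 7 of the 8 treated mice numbered below every untreated mouse. What these numbers encode is not stated, and their part in the results was not tested. Hepatocyte markers were abundant, with a summed level of 4230 to 24000 FPKM in treated livers and 3830 to 20800 FPKM in untreated livers, while Alb and Serpina1c were listed at 0 in every mouse. This sum includes Ttr and Apoa1, which were listed at 0 in a whole group and were left out of the tests. Over the 5 tested hepatocyte markers the sum was 3785 to 4806 FPKM in treated livers and 3204 to 4482 FPKM in untreated livers.

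Few loci passed the threshold for metformin. Of 11441 tested loci, 23 were called (0.201%), 9 higher (0.0787%) and 14 lower (0.122%) in treated livers. All 23 had the same sign in mice labelled Ncoa5+/- and in wild type mice, which the additive model favours by its form. Among all tested loci 61.6% had the same sign in both genotypes. The called differences ran from 0.24 to 0.74 on the log2 scale for the loci that rose and from -0.23 to -1.42 for those that fell, with a median size of 0.46. The treated and untreated values did not overlap at all in 6 of the 23 called loci and in 11 of all tested loci (0.0961%). Within each genotype the values did not overlap in 10 of the called loci and in 33 of all tested loci (0.288%). At an unadjusted p under 0.05 the counts were 812 loci higher (7.1%) and 953 loci lower (8.33%). The count of calls depended on individual mice. It ran from 1 to 126 when each mouse was left out in turn, with 126 calls without treated Ncoa5+/- replicate 4 and 2 calls without untreated wild type replicate 2.

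The base composition of the transcripts moved with these differences. Across the 9508 tested loci with an annotated GC content, Spearman's rho between the metformin difference and GC content was -0.34, with -0.43 in mice labelled Ncoa5+/- and -0.13 in wild type mice. The loci share the same 17 libraries, so this is a description. Median GC content was 43.9% for the 7 genes called higher that had a value, 57.4% for the 12 genes called lower and 50% for all loci. Among these 9508 loci 5 were called after a correction for GC content in each library, 4 higher and 1 lower, against 19 without the correction. Evi5, Snrpe, Rec8 and Tcf7l2 were the named genes among them, each with an adjusted p of 0.036 by limma.

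Evi5 gave the clearest difference. It encodes a protein with a TBC domain that binds the small GTPase Rab11 and takes part in membrane traffic and cell division. Evi5 (chromosome 5, 107744795 to 107875107, GRCm38, minus strand) stood at 32.6, 31.3, 36.9, 32.9 and 29.4 FPKM in treated mice labelled Ncoa5+/-, against 21, 23.3, 26.3, 24.8 and 23.6 FPKM in untreated mice with this label. In wild type mice Evi5 stood at 34.6, 30.7 and 29.6 FPKM with metformin and at 22.6, 25.3, 24.1 and 24 FPKM without it. Every treated mouse lay above every untreated mouse. The means were 32.2 ± 2.6 and 23.9 ± 1.5 FPKM (SD, n = 8 and 9), a log2 difference of 0.42 ± 0.05 (SE) with an adjusted p of 0.00693 by limma. The difference was 0.44 in mice labelled Ncoa5+/- and 0.38 in wild type mice. Evi5 kept an adjusted p of at most 0.036 in all 32 alternative settings, and no other named gene stayed past the threshold in all of them.

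Tmed5, a second called gene, lies 310 kb from Evi5 between gene midpoints. It encodes a p24 family protein of cargo transport between the endoplasmic reticulum and the Golgi. Tmed5 (chromosome 5, 108106366 to 108132620, minus strand) stood at 39.5, 54.8 and 69.7 FPKM (lowest, median and highest) in treated mice and at 27.3, 35.2 and 45.5 FPKM in untreated mice. The log2 difference was 0.62 ± 0.12 (adjusted p = 0.0496 by limma), with 0.60 in mice labelled Ncoa5+/- and 0.63 in wild type mice, although the groups overlapped, and Tmed5 was past the threshold in 12 of 32 alternative settings. Tmed5 overlaps Mtf2 on the other strand at their ends and Evi5 overlaps Ube2d2b, and reads in a shared stretch cannot be told apart where strand is not stated. Mtf2 itself had a log2 difference of 0.07 ± 0.10.

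The neighbourhood of Evi5 was examined after these values were seen. Of 19 tested genes within 1 Mb, 6 had an unadjusted p under 0.05, all 6 higher in treated livers, against 7.1% of all loci, and 2 were called, against 0.201%. Both counts include Evi5 and Tmed5, for which the window was chosen, and without them 4 of 17 genes were higher at an unadjusted p under 0.05. Beside the called pair these were Fam69a at 0.27 ± 0.06 (adjusted p = 0.070), Rpap2 at 0.35 ± 0.10 (0.107), Rpl5 at 0.13 ± 0.04 (0.155) and Tgfbr3 at 0.19 ± 0.09 (0.289), log2 differences with SE and adjusted p by limma. Rpl5 and Fam69a overlap at their ends, so their reads can be shared, and the locus of Rpl5 also holds Snord21. Glmn, between Tgfbr3 and Rpap2, stood at -0.07 ± 0.11. From Dr1 (0.00 ± 0.06), 465 kb beyond Evi5, to the end of the window the differences lay between -0.11 and 0.11. Chromosome 5 held 4 of the called genes with an annotated position among 635 tested genes (0.63%), chromosome 14 held 3 of 336 (0.893%) and chromosome 15 held 3 of 384 (0.781%), against 0.201% of all loci.

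**Figure D1:**
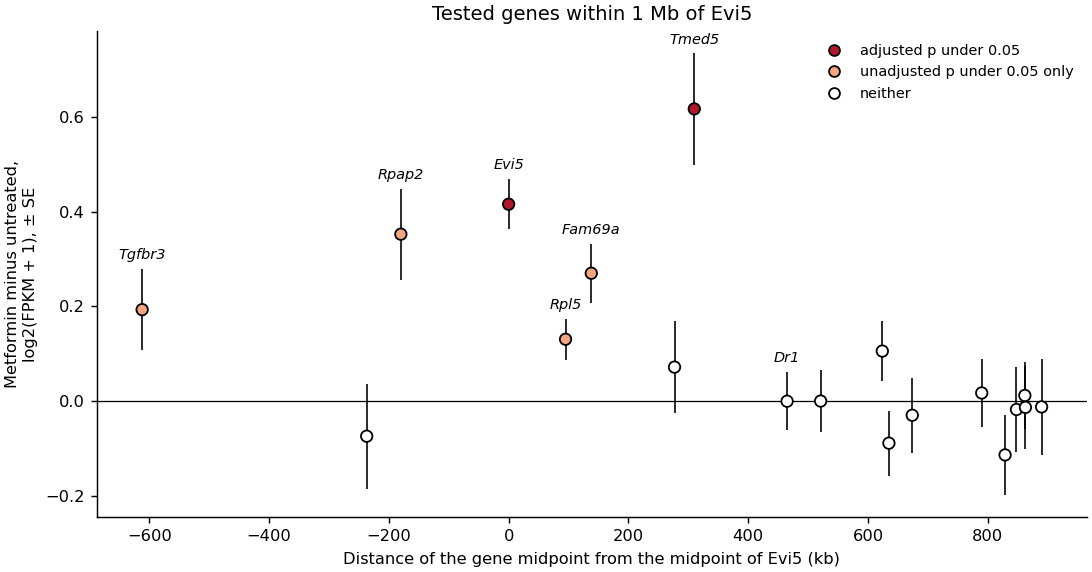
Tested genes around Evi5, placed by the distance of their midpoint from that of Evi5 (kb, horizontal axis) with the metformin minus untreated difference in log2(FPKM + 1) ± SE (vertical axis, n = 8 and 9). Evi5 at 0.42 and Tmed5 at 0.62 are called, 4 further genes have an unadjusted p under 0.05 only, and the genes from Dr1 onward lie near 0.

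Promoters are shown for the neighbouring pair that rose, for Hadhb and for the transcription factor gene that fell, Tcf7l2. Each window holds 300 bases around the RefSeq start (GRCm38.p6), 5′ to 3′ on the strand of the gene. Evi5 lies at chr5:107868999-107869298 on the minus strand, Tmed5 at chr5:108132571-108132870 on the minus strand, Hadhb at chr5:30155003-30155302 on the plus strand and Tcf7l2 at chr19:55741560-55741859 on the plus strand. The Evi5 window lies inside the GENCODE span of the gene, whose 5′ end is at 107875107, so the RefSeq and GENCODE starts differ for Evi5. Capitals mark the GC box GGGCGG, the CCAAT box and their reverse complements, and capitals that run together in Tcf7l2 are overlapping or adjoining GC boxes.
Evi5: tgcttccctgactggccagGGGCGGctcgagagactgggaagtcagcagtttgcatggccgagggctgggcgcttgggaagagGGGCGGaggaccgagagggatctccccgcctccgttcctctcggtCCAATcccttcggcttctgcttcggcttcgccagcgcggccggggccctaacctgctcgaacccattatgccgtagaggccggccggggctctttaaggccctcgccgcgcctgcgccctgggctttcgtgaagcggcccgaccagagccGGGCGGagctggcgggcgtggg
Tmed5: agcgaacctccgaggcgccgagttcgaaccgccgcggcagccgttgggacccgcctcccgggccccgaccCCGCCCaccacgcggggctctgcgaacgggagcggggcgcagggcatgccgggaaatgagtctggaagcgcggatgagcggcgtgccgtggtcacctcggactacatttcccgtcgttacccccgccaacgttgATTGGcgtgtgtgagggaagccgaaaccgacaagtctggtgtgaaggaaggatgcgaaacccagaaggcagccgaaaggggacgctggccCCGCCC
Hadhb: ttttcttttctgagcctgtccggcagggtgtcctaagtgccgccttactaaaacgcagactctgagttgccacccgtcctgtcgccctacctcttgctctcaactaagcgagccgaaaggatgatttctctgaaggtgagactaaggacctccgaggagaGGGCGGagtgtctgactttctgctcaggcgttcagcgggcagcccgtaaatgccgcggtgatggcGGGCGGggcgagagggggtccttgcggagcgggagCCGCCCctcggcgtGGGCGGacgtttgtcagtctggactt
Tcf7l2: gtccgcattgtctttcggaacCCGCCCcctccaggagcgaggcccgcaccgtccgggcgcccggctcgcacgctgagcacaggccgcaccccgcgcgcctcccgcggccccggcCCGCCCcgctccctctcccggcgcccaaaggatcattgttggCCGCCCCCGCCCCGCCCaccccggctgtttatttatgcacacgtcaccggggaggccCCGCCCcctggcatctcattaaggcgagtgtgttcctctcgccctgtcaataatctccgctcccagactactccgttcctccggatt
The Evi5 window held 3 GC boxes and 1 CCAAT box, the Tmed5 window 2 and 1, the Hadhb window 4 and 0 and the Tcf7l2 window 6 and 0. RefSeq windows were matched for all 7 named genes called higher and for 10 of the 12 called lower. A GC box on either strand was found in 4 of the 7 and 6 of the 10 windows, against 35.7% of 32851 promoters. A CCAAT box was found in 5 of the 7 and 5 of the 10 windows, against 37.4% of all promoters. The E-box CACGTG, present in 7.15% of promoters, and the full cAMP response element TGACGTCA, present in 1.79%, were found in none of the 17 windows.

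Hadhb rose among the genes of mitochondrial metabolism. It encodes the beta subunit of the mitochondrial trifunctional protein, which carries out the last steps of long-chain fatty acid oxidation. Hadhb (chromosome 5, 30155248 to 30184593, plus strand) stood at 93.0, 98.8, 112, 90.6 and 104 FPKM in treated mice labelled Ncoa5+/-, against 77.9, 86.4, 78.7, 81.5 and 77.3 FPKM in untreated ones. Hadhb, in wild type mice, stood at 94.4, 93.8 and 87.7 FPKM with metformin and at 84.1, 79.2, 77.0 and 82.1 FPKM without. All treated mice lay above all untreated mice, the nearest being 87.7 and 86.4 FPKM. The log2 difference was 0.26 ± 0.05 (adjusted p = 0.0446 by limma), with 0.31 in mice labelled Ncoa5+/- and 0.19 in wild type mice. Hadha, which encodes the alpha subunit and was looked up after the Hadhb values were seen, is transcribed from the other strand, and the promoter windows of the pair share 228 bases. Hadha averaged 159 ± 9 FPKM in treated livers and 142 ± 10 FPKM in untreated livers, a log2 difference of 0.16 ± 0.05 that was not called (adjusted p = 0.155). After GC correction the Hadhb difference was 0.21 and not called (adjusted p = 0.11), and Hadhb was past the threshold in 13 of 32 alternative settings.

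Mrpl32 and Snrpe rose with little spread. Mrpl32 encodes a protein of the large mitochondrial ribosomal subunit. Mrpl32 (chromosome 13, 14608184 to 14613165, minus strand) ran from 28.8 to 32.9 FPKM in the 8 treated mice and from 24.9 to 26.9 FPKM in the 9 untreated mice, with no overlap. Its log2 difference was 0.24 ± 0.04 (adjusted p = 0.0213 by limma), with 0.24 in mice labelled Ncoa5+/- and 0.25 in wild type mice. Snrpe encodes Sm protein E, a core protein of spliceosomal ribonucleoproteins. Snrpe (chromosome 1, 133603871 to 133610291, minus strand) ran from 85.2 to 102 FPKM in treated mice and from 74 to 82.6 FPKM in untreated mice, again with no overlap. Its log2 difference was 0.26 ± 0.04 (adjusted p = 0.0213), with 0.21 in mice labelled Ncoa5+/- and 0.33 in wild type mice. Mrpl32 and Snrpe were each past the threshold in 26 of 32 alternative settings.

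Tomm40 fell among the genes for mitochondrial proteins. Tomm40, the channel through which proteins enter mitochondria (chromosome 7, 19701313 to 19715438), stood at 22.2, 23.3 and 26.7 FPKM (lowest, median and highest) in treated mice and at 24.8, 29.4 and 34.6 FPKM in untreated mice. Its log2 difference was -0.32 ± 0.06 (adjusted p = 0.0392 by limma). Within each genotype the Tomm40 values did not overlap, and the call held in 13 of 32 alternative settings.

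**Figure D2:**
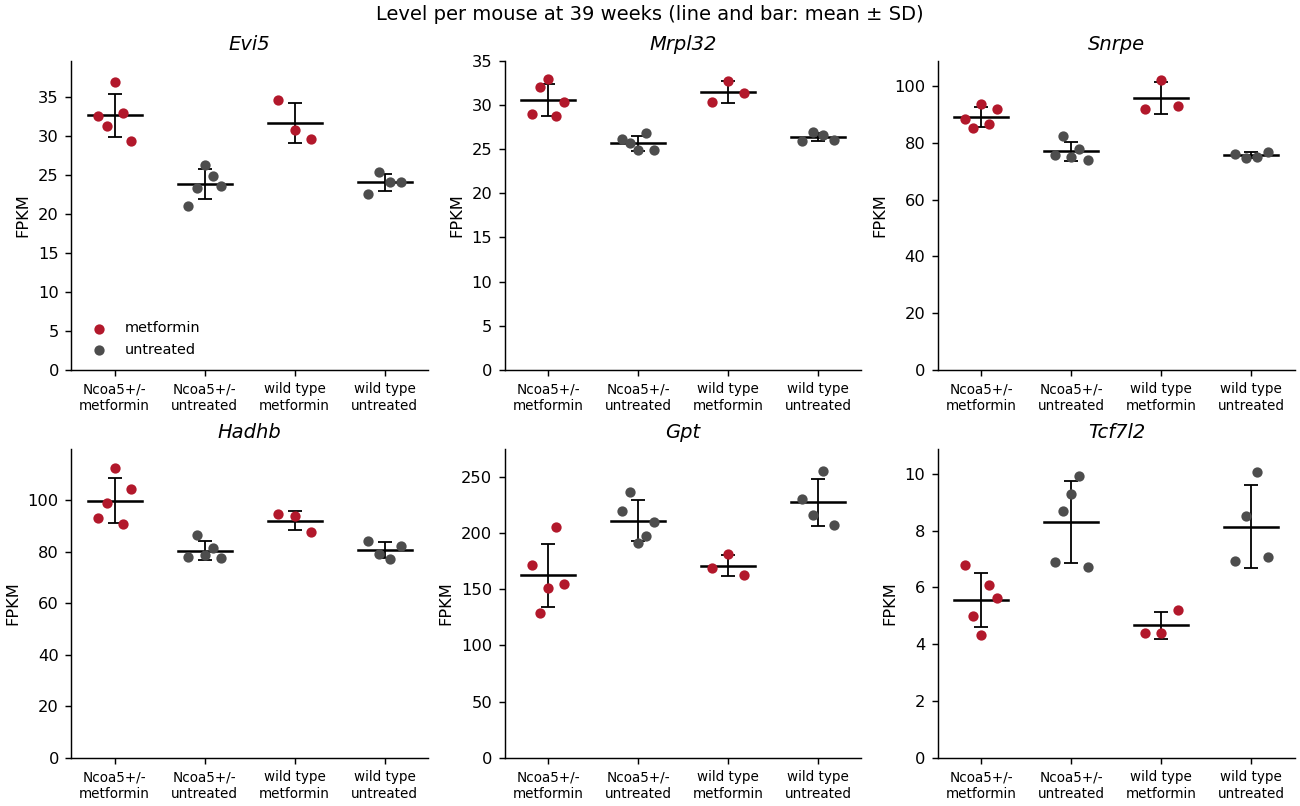
Level of 6 called genes in each mouse (FPKM, vertical axis starting at 0) for treated and untreated mice of each genotype label, with the group mean as a line and the SD as a bar (n = 5, 5, 3 and 4 from left to right). Evi5, Mrpl32, Snrpe and Hadhb are higher in every treated mouse than in any untreated mouse, while Gpt and Tcf7l2 are lower with some overlap between treated and untreated mice.

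Gpt fell among the genes of glucose production. It encodes alanine aminotransferase, which turns alanine into pyruvate, a substrate for new glucose. Gpt (chromosome 15, 76695716 to 76699686, plus strand) stood at 171, 129, 151, 205 and 154 FPKM in treated mice labelled Ncoa5+/-, against 220, 237, 191, 197 and 209 FPKM in untreated ones. Wild type livers held 168, 181 and 163 FPKM with metformin and 230, 216, 255 and 207 FPKM without. Only the treated mouse at 205 FPKM lay inside the untreated range. The log2 difference was -0.40 ± 0.08 (adjusted p = 0.0496 by limma), with -0.39 in mice labelled Ncoa5+/- and -0.41 in wild type mice. The call of Gpt held in 10 of 32 alternative settings. Gpt was the only called gene of the list for gluconeogenesis and glucose output, 1 of 17 genes tested, against 0.201% of all loci. In that list 6 differences were positive and 11 negative, with a median of -0.10 on the log2 scale, against -0.00 over all tested loci.

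Tcf7l2, a transcription factor of the Wnt pathway whose human gene carries common diabetes risk variants, also fell. Tcf7l2 (chromosome 19, 55741820 to 55933654, plus strand) stood at 6.79, 4.99, 4.32, 6.09 and 5.65 FPKM in treated mice labelled Ncoa5+/-, against 6.89, 8.70, 9.31, 9.93 and 6.71 FPKM in untreated ones. In wild type mice Tcf7l2 stood at 4.4, 4.4 and 5.22 FPKM with metformin and at 6.93, 8.52, 10.1 and 7.08 FPKM without. The highest treated mouse lay just above the lowest untreated mouse. The log2 difference was -0.57 ± 0.10 (adjusted p = 0.0392 by limma), with -0.50 in mice labelled Ncoa5+/- and -0.68 in wild type mice, and the call held in 18 of 32 alternative settings. Of the pericentral hepatocyte genes driven by Wnt signals, 0 of 15 were called, against 0.201% of all loci, and 9 differences were positive and 6 negative. The members with the smallest p were Cyp27a1 (0.28 ± 0.06, adjusted p = 0.0584) and the feedback inhibitor Axin2 (0.33 ± 0.16, adjusted p = 0.358), as log2 differences.

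A further 8 genes that fell serve varied functions. Telo2, a co-chaperone of large kinases such as mTOR, had 2.11 ± 0.74 FPKM in treated livers and 3.60 ± 0.81 FPKM in untreated livers, a log2 difference of -0.60 ± 0.12. Parp16, an ADP-ribosyltransferase of the endoplasmic reticulum membrane, had 9.56 ± 1.12 and 13.7 ± 2.4 FPKM in treated and untreated livers (-0.47 ± 0.09). Mast3, a microtubule-associated kinase, ran from 4.75 to 7.58 FPKM in treated mice and from 7.03 to 10.4 FPKM in untreated mice (-0.48 ± 0.08). Tnrc18 ran from 4.77 to 7.55 FPKM in treated mice and from 7.11 to 9.81 FPKM in untreated mice (-0.49 ± 0.09). These 4 genes were lower in treated mice of both genotype labels, and the treated and untreated ranges overlapped. Dexi, named for its induction by dexamethasone, had 16.4 ± 2.7 FPKM in treated livers and 23.2 ± 3.4 FPKM in untreated livers (-0.46 ± 0.09). Rexo1, an RNA exonuclease homolog, had 7.11 ± 1.04 and 9.40 ± 0.79 FPKM in treated and untreated livers (-0.37 ± 0.07). Nisch, which encodes the cytoplasmic protein nischarin, had 32.8 ± 2.7 and 39.7 ± 2.2 FPKM in treated and untreated livers (-0.27 ± 0.05). Gga1, an adaptor for clathrin-coated vesicles at the Golgi, ran from 11.2 to 15.4 FPKM in treated mice and from 15.6 to 19.4 FPKM in untreated mice (-0.30 ± 0.06), and was the only one of the 8 whose groups did not overlap. Adjusted p by limma lay between 0.0392 and 0.0498 for these genes, and each call held in 7 (Telo2 and Nisch) to 15 (Tnrc18 and Mast3) of up to 32 alternative settings. Dexi overlaps Ciita and Nisch overlaps Tnnc1 in the annotation.

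Among the remaining genes that rose, Rec8, a cohesin subunit best known from meiosis, had the largest difference of a gene with a regular symbol. Rec8 (chromosome 14, 55618037 to 55625395) stood at 4.44, 6.39, 4.73, 4.18 and 3.53 FPKM in treated mice labelled Ncoa5+/-, against 3.21, 1.11, 3.54, 2.25 and 2.65 FPKM in untreated ones. Wild type values of Rec8 were 2.58, 3.65 and 3.33 FPKM with metformin and 1.49, 1.22, 1.29 and 1.61 FPKM without. The wild type groups did not overlap, and in mice labelled Ncoa5+/- the lowest treated value lay just under the highest untreated value. The log2 difference was 0.74 ± 0.13 (adjusted p = 0.0392 by limma). Mbl1, a mannose-binding lectin that hepatocytes secrete, had 212 ± 18 FPKM in treated livers and 176 ± 13 FPKM in untreated livers, a log2 difference of 0.27 ± 0.05 (adjusted p = 0.0496). The call held in 17 of 31 alternative settings for Rec8 and in 12 of 32 for Mbl1. The other 2 loci that rose were RP23-480P21.2 on chromosome 5 (0.69 ± 0.12) and the ribosomal pseudogene locus Rpl14-ps1 on chromosome 7 (0.47 ± 0.09), whose reads may be shared with the parent gene.

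**Figure D3:**
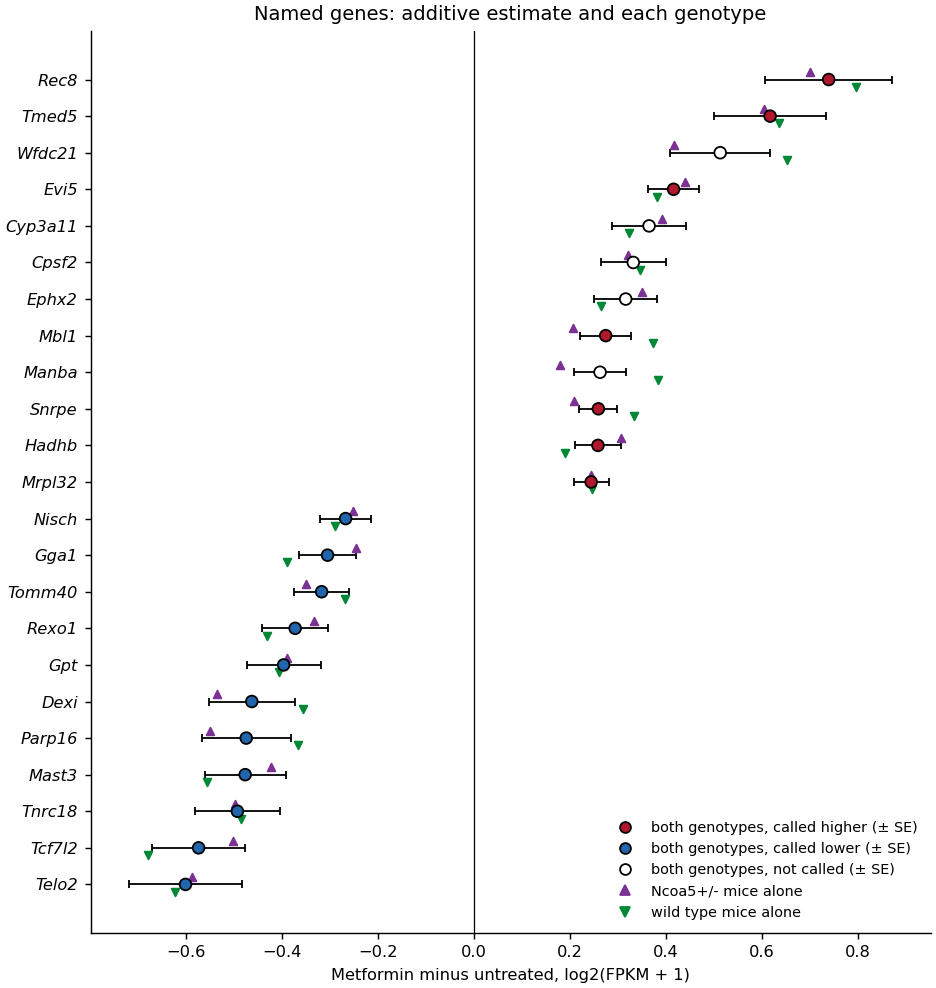
Metformin minus untreated difference in log2(FPKM + 1) (horizontal axis) for 23 genes with the largest called differences or nearest to the threshold, with the additive estimate ± SE as circles (n = 8 and 9) and the difference in each genotype label as triangles. Filled circles are called, and for every gene both triangles lie on the same side of 0, since the genes were chosen for it.

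The 5 genes next in line for a higher level were not called. The WAP-domain gene Wfdc21 (0.51 ± 0.10) and the polyadenylation factor gene Cpsf2 (0.33 ± 0.07) had an adjusted p of 0.0562. The lysosomal enzyme gene Manba (0.26 ± 0.05), the epoxide hydrolase gene Ephx2 (0.32 ± 0.07) and the drug-metabolising cytochrome gene Cyp3a11 (0.36 ± 0.08) had an adjusted p of 0.0584. At an adjusted p under 0.1 the count was 178 loci, 64 higher and 114 lower, so many loci lay close to the threshold.

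The largest of the called differences belonged to a locus without a gene name on chromosome 3 (5860335 to 5860777 as the deposited table writes it). It stood at 539, 654 and 1881 FPKM (lowest, median and highest) in treated mice and at 1008, 1778 and 3959 FPKM in untreated mice, a log2 difference of -1.42 ± 0.24 (adjusted p = 0.0392 by limma). Loci known for ribosomal RNA sequence had differences of the same sign but were not called. Rn18s-rs5 stood at 32.1, 43.3 and 144 FPKM in treated mice and at 69.3, 121 and 251 FPKM in untreated mice (log2 difference -1.28 ± 0.27, adjusted p = 0.0584). Yam1 and Gm26917 stood at -1.05 ± 0.22 and -0.91 ± 0.19 (both 0.0584), and Lars2, whose locus is known to draw ribosomal reads, at -0.88 ± 0.20 (0.0694). These loci were singled out after their values were seen, and the part of leftover ribosomal RNA in the other results was not tested. Gm14148 on chromosome 2 was the last called locus, at -0.72 ± 0.12.

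Cdkn1a, the p21 gene, a cell cycle inhibitor, had lower means with metformin under both genotype labels, but was not called. It stood at 24.5, 15.0, 14.4, 11.3 and 25.7 FPKM in treated mice labelled Ncoa5+/-, against 117, 17.7, 15.0, 18.3 and 33.5 FPKM in untreated ones. Wild type levels of Cdkn1a were 1.06, 0.684 and 0.673 FPKM with metformin and 1.28, 2.68, 1.71 and 1.56 FPKM without. The wild type groups did not overlap, while those labelled Ncoa5+/- did. At equal genotype the log2 difference was -0.67, with a two-sided exact permutation p of 0.0433 when the treatment labels were exchanged within each genotype (8820 arrangements, n = 8 and 9). In the fit over all loci by limma the adjusted p was 0.323 and Cdkn1a was not called. Leaving out the mouse at 117 FPKM gave a log2 difference of -0.39 (exact permutation p = 0.0857). The exact permutation p was 0.05 or more in 11 of the 17 settings that leave out a mouse, with a range of 0.0147 to 0.0998. Among 20 tested p53 target genes 0 were called, against 0.201% of all loci, with 4 positive and 16 negative differences and a median of -0.11. Bax, which promotes apoptosis, was at -0.17 ± 0.08 (adjusted p = 0.294).

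The lists of related genes were read as counts and medians. With 0.201% of all loci called, a count of 0 in a list of this size says little about whether its genes differ. Over all tested loci 5633 differences were positive and 5808 negative, with a median of -0.00. The list for PPAR-alpha and fatty acid oxidation leaned upward, with 31 of 35 differences positive, 1 gene called (Hadhb) and a median of 0.12. Of these 35 genes 11 had an unadjusted p under 0.05, all of them higher, against 7.1% of all loci. The median was 0.20 in mice labelled Ncoa5+/- and -0.00 in wild type mice, and the gap between these medians was not tested. Of the 35 genes 18 had the same sign in both genotypes. Fgf21, a fasting hormone that both PPAR-alpha and ATF4 are known to induce, stood at 2.93, 23.2, 16, 2.30 and 2.24 FPKM in treated mice labelled Ncoa5+/-, against 1.43, 2.12, 2.06, 3.24 and 0.676 FPKM in untreated ones. The wild type levels of Fgf21 were 10.5, 3.26 and 3.70 FPKM with metformin and 2.60, 0.291, 1.17 and 1.15 FPKM without. Its log2 difference was 1.41 ± 0.40 and was not called (adjusted p = 0.119). The 3 highest treated mice stood above 10 FPKM, and the other 5 lay between 2.24 and 3.70 FPKM, which overlaps the untreated range.

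Genes of fatty acid synthesis and storage were mixed. Of 18 tested genes for fatty acid synthesis under SREBP1 control 0 were called, 7 positive and 11 negative. Srebf1, which encodes SREBP1 itself, had 90.1 ± 21.2 FPKM in treated livers and 158 ± 50 FPKM in untreated livers, a log2 difference of -0.78 ± 0.18 just short of a call (adjusted p = 0.070). Dgat2, an enzyme of triglyceride synthesis, was at -0.33 ± 0.07 (adjusted p = 0.070). Among 15 lipid droplet genes 0 were called and 11 were positive, with G0s2, an inhibitor of triglyceride breakdown, at 1.26 ± 0.45 (adjusted p = 0.19) and Cideb at -0.15 ± 0.05 (0.181). The median of these 15 genes was 0.27 in mice labelled Ncoa5+/- and -0.08 in wild type mice. Only 5 of them had the same sign in both genotypes. Among 21 cholesterol synthesis genes 0 were called, with 11 positive and 10 negative. Among 15 apolipoprotein genes 0 were called, and Apob was at 0.16 ± 0.06 (adjusted p = 0.201).

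Further lists close to the drug's known actions held 0 called genes, against 0.201% of all loci. Of 9 tested AMPK subunit and upstream kinase genes 4 were positive and 5 negative, with the beta subunit gene Prkab1 at -0.25 ± 0.07 (adjusted p = 0.119) and the gamma subunit gene Prkag2 at -0.28 ± 0.09 (0.13). Of 5 organic cation and thiamine transport genes 3 were positive, with the carnitine carrier gene Slc22a5 at 0.32 ± 0.13 (0.228) and the exporter gene Slc47a1 at -0.20 ± 0.09 (0.313). Wild type mice differed little in Prkab1 (-0.07, against -0.36 in mice labelled Ncoa5+/-) and in Slc22a5 (0.04, against 0.52). For Prkag2 and Slc47a1 the wild type difference was the larger (-0.38 against -0.22, and -0.29 against -0.13). Of 18 glycolysis genes 13 were negative, and Gpi1 stood at -0.24 ± 0.07 (0.119). Of 15 insulin signalling genes 13 were negative, and Akt2, the insulin-activated kinase of liver, had 46.1 ± 3.1 FPKM in treated livers and 54.5 ± 3.7 FPKM in untreated livers (-0.24 ± 0.05, adjusted p = 0.0609). In mice labelled Ncoa5+/- and in wild type mice the medians were -0.003 and -0.15 for glycolysis, and -0.05 and -0.16 for insulin signalling. The nuclear-encoded complex I list had 26 of 35 positive differences and a median of 0.07, and complexes II to V had 28 of 37 positive and a median of 0.08. Atp5b, the catalytic beta subunit of ATP synthase, was at 0.30 ± 0.07 (adjusted p = 0.0784). Of 5 mitochondrially encoded mRNAs with a usable value 4 were positive and 0 were called.

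Cytosolic ribosomal protein genes leaned upward together, 64 of 70 positive with a median of 0.13, and 0 were called. Of the 70 genes 29 were higher at an unadjusted p under 0.05 and 1 was lower, against 7.1% and 8.33% of all loci. The median was 0.02 in mice labelled Ncoa5+/- and 0.28 in wild type mice. Rpl38 had the smallest p, with 1576 ± 301 FPKM in treated livers and 1176 ± 155 FPKM in untreated livers (0.42 ± 0.11, adjusted p = 0.0947). Among 30 proteasome subunit genes 20 were positive, with a median of 0.03.

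Genes of bile acid handling and of the growth hormone axis had more positive than negative differences, and 0 were called. Of 20 bile acid genes 12 were positive, 8 of them with an unadjusted p under 0.05, against 7.1% of all loci. The bile acid median was 0.10, with 0.12 in mice labelled Ncoa5+/- and 0.10 in wild type mice. Of these genes 17 had the same sign in both genotypes. Cyp27a1, which oxidises the sterol side chain, had 347 ± 49 FPKM in treated livers and 287 ± 24 FPKM in untreated livers (0.28 ± 0.06, adjusted p = 0.0584). Of 19 genes of the growth hormone and STAT5 axis 12 were positive and 0 called. At an unadjusted p under 0.05, 6 were higher and 1 lower, against 7.1% and 8.33% of all loci. Their median was 0.15, with 0.12 in mice labelled Ncoa5+/- and 0.29 in wild type mice. Of these genes 15 had the same sign in both genotypes. Elovl3, a fatty acid elongase with higher levels in male liver, stood at 79.2, 63.1, 63.2, 121 and 110 FPKM in treated mice labelled Ncoa5+/-, against 37.3, 55.9, 80.3, 39.4 and 34.1 FPKM in untreated ones. In wild type mice Elovl3 stood at 91.3, 93.1 and 76.6 FPKM with metformin and at 48.9, 55.3, 59.5 and 52.0 FPKM without, a log2 difference of 0.77 ± 0.17 over all mice (adjusted p = 0.0609). The wild type groups did not overlap, while untreated Ncoa5+/- replicate 3 lay above 4 treated mice. Of 26 xenobiotic cytochrome and receptor genes 11 were positive and 0 called, and Cyp2b10 stood at -0.84 ± 0.23 (adjusted p = 0.103). Of 24 glutathione and NRF2 genes 15 were positive and 0 called, with the transferase Gsta1 at 28.7 ± 17.4 FPKM in treated livers and 48.5 ± 28.5 FPKM in untreated livers (-0.88 ± 0.19, adjusted p = 0.0584). Gsta1 and Gsta2 are near-identical, so the split of reads between them is uncertain.

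Lists for nitrogen metabolism and for stress leaned downward, all with 0 called genes. Of 29 urea cycle and amino acid catabolism genes 24 were negative, with a median of -0.14, and 11 of 14 periportal hepatocyte genes were negative, with a median of -0.18. Urocanase Uroc1 (-0.33 ± 0.09, adjusted p = 0.11) and liver glutaminase Gls2 (-0.49 ± 0.15, 0.124) led both lists. For endoplasmic reticulum folding 20 of 24 differences were negative, with a median of -0.24 and with the chaperone genes Sdf2l1 (-0.82 ± 0.28) and Pdia6 (-0.40 ± 0.14) at an adjusted p of 0.173. For cytosolic heat shock 20 of 21 were negative (median -0.19) and for immediate early genes also 20 of 21 (median -0.34), led by Hsf1 (-0.17 ± 0.06, adjusted p = 0.165) and Jund (-0.31 ± 0.09, 0.11). In mice labelled Ncoa5+/- the medians of the folding, heat shock and immediate early lists were -0.18, -0.08 and -0.14. In wild type mice they were -0.40, -0.39 and -0.67, in the same order. Untreated wild type replicate 2 stood out in these 3 lists. Its summed immediate early level was 1433 FPKM, against 135 to 236 FPKM in treated mice and 150 to 321 FPKM in the other untreated mice. Without it 6 of 20 tested immediate early genes, 3 of 21 heat shock genes and 6 of 24 folding genes had a positive difference, with medians of -0.24, -0.12 and -0.18 in that order. Of the interferon-stimulated genes 22 of 24 were negative (median -0.17), with Irf7 at -0.34 ± 0.13 (adjusted p = 0.205), and of the acute phase genes 18 of 22 (median -0.16). At an unadjusted p under 0.05, 1 of the 24 interferon-stimulated genes was lower, against 8.33% of all loci. On the same measure 2 of 21 heat shock, 4 of 21 immediate early and 3 of 22 acute phase genes were lower. So were 7 of 29 urea cycle and amino acid catabolism, 5 of 14 periportal and 6 of 24 folding genes.

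**Figure D4:**
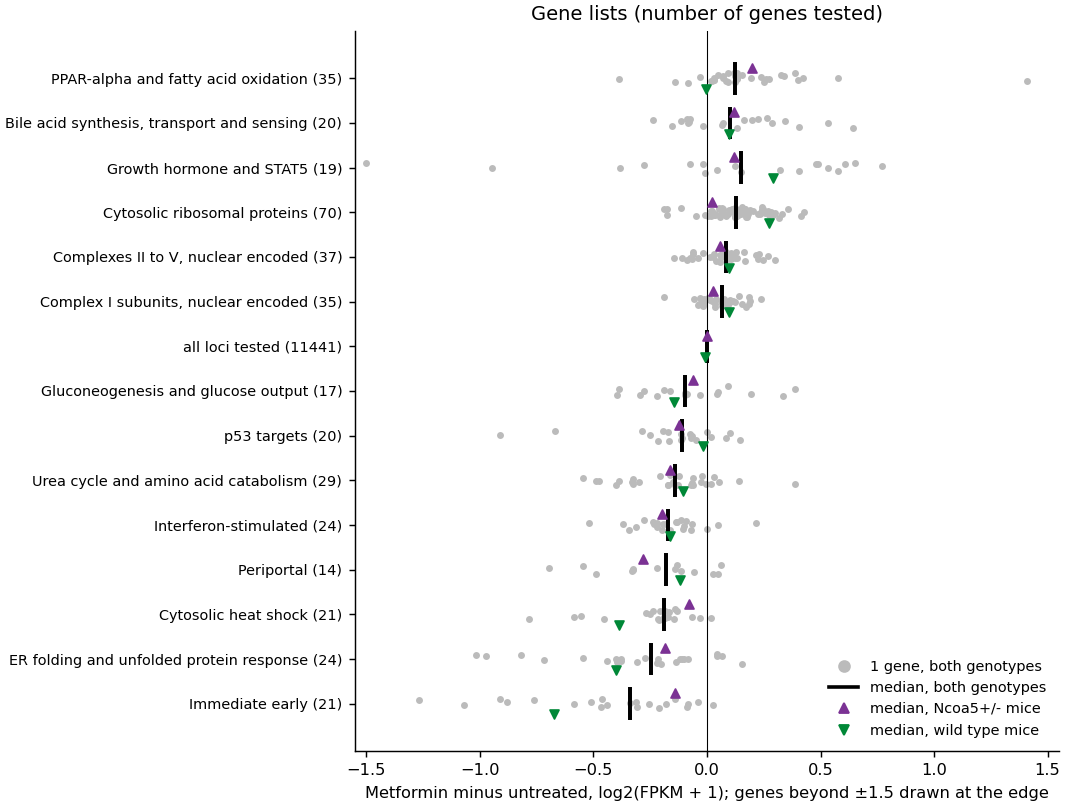
Metformin minus untreated difference in log2(FPKM + 1) (horizontal axis) for the tested genes of 14 lists as grey points, with the median over both genotypes as a black bar and the median in each genotype label as triangles. The rows are not ordered by median. The highest median is that of growth hormone and STAT5 (0.15) and the lowest that of immediate early genes (-0.34), and the row of all 11441 loci has its median at -0.00.

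The remaining lists held 0 called genes. Of 20 circadian clock genes 14 were negative with a median of -0.13, with the repressor gene Per2 at -0.56 ± 0.17 (adjusted p = 0.134) and Clock at 0.30 ± 0.11 (0.208). Of 13 cell cycle genes 9 were negative, with Pcna at 18.2 ± 0.7 FPKM in treated livers and 20.2 ± 1.6 FPKM in untreated livers (-0.14 ± 0.05, adjusted p = 0.175). The cell cycle median was -0.03 in mice labelled Ncoa5+/- and -0.18 in wild type mice. Of 16 matrix and fibrosis genes 11 were negative, with the fibronectin gene Fn1 at -0.21 ± 0.05 (0.0947) and the decorin gene Dcn on the other side at 0.35 ± 0.10 (0.11), and at an unadjusted p under 0.05 the list had 2 higher and 1 lower. Of 14 genes of NF-kB signalling 9 were negative, with the chemokine gene Cxcl10 at -0.72 ± 0.19 (0.0981). The lists for iron handling, for fetal liver and liver tumour genes and for the integrated stress response had medians over both genotypes within 0.04 of 0, as did the Ncoa family. In mice labelled Ncoa5+/- and in wild type mice the medians were -0.17 and 0.11 for fetal liver and liver tumour genes. They were -0.05 and 0.20 for the integrated stress response, -0.06 and -0.05 for iron handling, and 0.09 and -0.04 for the Ncoa family.

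Markers of Kupffer cells and macrophages, sinusoidal endothelium, stellate cells and blood had positive median differences over both genotypes, with 0 called. In wild type mice alone these medians were near 0. The medians were 0.16 for 14 Kupffer cell and macrophage genes, 0.10 for 16 sinusoidal endothelial genes, 0.17 for 10 stellate cell genes and 0.14 for 7 erythroid and blood genes. In mice labelled Ncoa5+/- the medians of these 4 lists were 0.26, 0.21, 0.24 and 0.25, and in wild type mice they were 0.01, 0.00, 0.07 and -0.01, in the same order. Smaller lists differed, with medians of -0.09 for 3 lymphocyte, 0.01 for 5 cholangiocyte and 0.17 for 2 neutrophil genes. Their medians were -0.24, -0.09 and 0.27 in mice labelled Ncoa5+/- and 0.14, 0.13 and 0.03 in wild type mice. Of the 14 Kupffer cell and macrophage genes 7 had the same sign in both genotypes. The summed levels of the markers found under their own locus name overlapped. Kupffer cell and macrophage markers summed to 344 to 494 FPKM in treated livers and to 204 to 772 FPKM in untreated livers. Endothelial markers summed to 216 to 256 and 119 to 253 FPKM in treated and untreated livers, and stellate markers to 110 to 138 and 81.5 to 124 FPKM. Of 17 lymphocyte markers 3 passed the filter on low values and of 11 neutrophil markers 2 did, and of the markers found none in these lists was at 0 in every mouse. In whole liver, a difference in the number of cells of a type and a difference in RNA per cell cannot be told apart. The part of cell composition in the called genes was not tested.

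Within each genotype alone, with fewer mice, the calls were lost. The additive estimate averages the differences of the 2 genotypes, so its closeness to them is built in. These differences lay near each other for Evi5 (0.44 in mice labelled Ncoa5+/- and 0.38 in wild type mice), Mrpl32 (0.24 and 0.25) and Gpt (-0.39 and -0.41). They were further apart for other called genes, such as Hadhb (0.31 and 0.19), Snrpe (0.21 and 0.33) and Mbl1 (0.21 and 0.37). In the 4-group fit 0 of 11441 loci were called for metformin in mice labelled Ncoa5+/- (0%; smallest adjusted p 0.166, 1010 loci at an unadjusted p under 0.05) and 0 in wild type mice (0%; 0.155, 1070 loci). Of 245 loci with an unadjusted p under 0.05 in both genotypes, 242 differed in the same direction, 91 higher and 151 lower, and 3 in opposite directions. Across all loci the differences in the 2 genotypes, which use separate mice, had a Pearson correlation of 0.163 and a Spearman correlation of 0.354, given as a description since loci are not independent and the libraries were normalized together. The test of the interaction of genotype and metformin called 0 loci by limma (0%), with 319 at an unadjusted p under 0.05 and a smallest adjusted p of 0.991. Of the 23 called loci 1, Gm14148, had an unadjusted interaction p under 0.05 (0.0241), with a difference of -0.50 in mice labelled Ncoa5+/- and -1.04 in wild type mice. A missing call does not show that the genotypes respond alike.

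**Figure D5:**
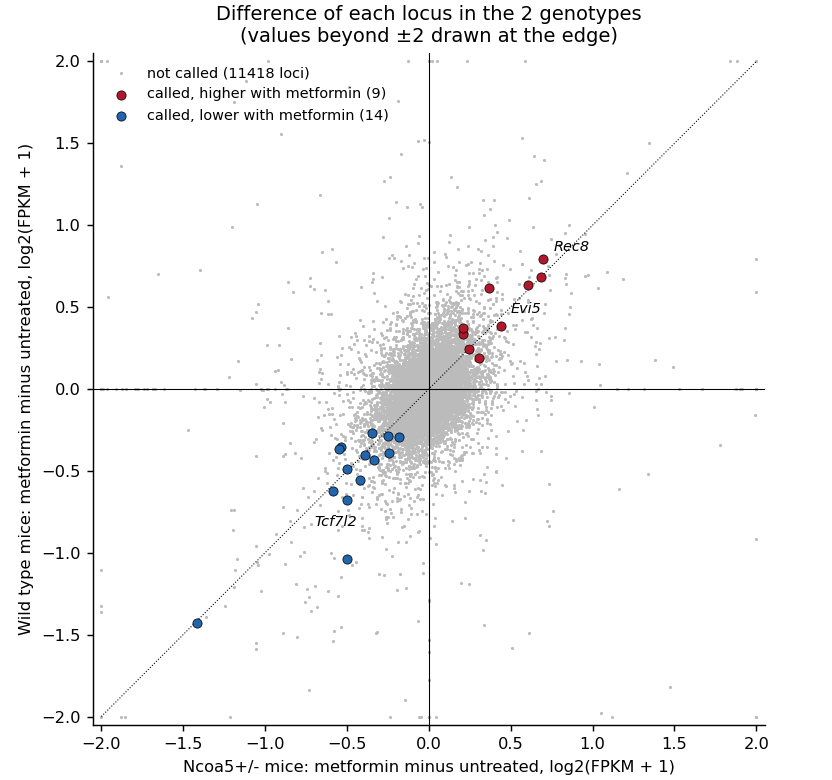
Metformin minus untreated difference in log2(FPKM + 1) of each of 11441 loci in mice labelled Ncoa5+/- (horizontal axis, n = 5 and 5) and in wild type mice (vertical axis, n = 3 and 4), with the diagonal dotted. The 9 loci called higher lie in the upper right and the 14 called lower in the lower left, most of them close to the diagonal. Closeness to the diagonal is favoured by the form of the additive model.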

How the data were processed

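Liver RNA of 17 mice at 39 weeks was analysed. Per the submitters' processing notes, the authors used Trimmomatic 0.33, TopHat2, Cufflinks and Cuffnorm with the build GRCm38.p5; versions of the last 3 tools are not given in the sources used here. The deposited values are FPKM per locus, normalized across the cohort by the authors' Cuffnorm run, with no read counts. Precision was therefore judged from how mice of a group differ, with the spread of each locus adjusted by limma toward that of all tested loci. Locus names are those of the authors' deposited annotation table. Coordinates, GC content and overlaps come from GENCODE M21 (GRCm38), and promoters from RefSeq (GRCm38.p6).

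Of 46052 loci, 14 were left out because they were listed at 0 in a whole group but were above 0 in every mouse of another group with a mean of at least 1 FPKM; 9 of these carry a regular gene name, among them Apoa2, Ahsg, Ttr and Cyp2e1. Of the rest, those averaging 1 FPKM or more over the 17 mice were tested as log2(FPKM + 1) by limma 3.58.1 (R 4.3.3; lmFit, then eBayes with its trend option) in an additive model of genotype and metformin, which was tested on simulated data. A 4-group fit gave the interaction and the differences within each genotype. Fold changes on this scale understate those of low genes. The p-values measure the spread between these mice, and nothing in the labels says whether they share litters or cages; animal numbers in the sample titles were 530 to 546 in 7 treated mice, 656 in the other and 552 to 849 in untreated mice.

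Named genes were Ncoa5, Cdkn1a, the 12 largest and 12 smallest differences among called genes of the same sign in both genotypes with a regular symbol, filled up by smallest p where fewer were called, called members of the lists, and the 2 members with the smallest p of a described list without calls, of which a part is printed; 1 gene called lower is not reported here. The members and the 45 lists were chosen with earlier results of these data known. Alternatives changed the pseudocount (0.1 or 5), the filter, the normalization, the fit and the mice used, and 2 were added after the data were seen, a GC correction and a fit of loci with a GC value.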

Additional observations from a re-analysis of the deposited data

Results flagged for a closer look

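In groups of 4 and 5 mice, 78 sets of values of the 26 named genes were looked at for a mouse far from the rest of its group, which chance flags in about 1 in 20, and 3 were flagged. Cdkn1a stood at 117 FPKM in untreated Ncoa5+/- replicate 1, while the other 4 mice of that group had 15.0 to 33.5 FPKM. Ephx2 stood at 223 FPKM in untreated Ncoa5+/- replicate 5, against 287 to 300 FPKM in the rest of the group. Parp16 stood at 11.8 FPKM in untreated wild type replicate 2, against 13.4 to 13.7 FPKM in the other 3 mice. Cause was not tested for any of the 3.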

How the results depend on the processing

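The count of 23 called loci depended on the processing, and under each setting run every called locus had the same sign in both genotypes. The count was 13 with a pseudocount of 5, 3 with no filter, 44 with a mean of at least 5 FPKM, 13 after a median shift, 10 with no trend, 76 with array weights, 4 for the mean of the 2 genotype differences in the 4-group fit and 5 after GC correction, against 19 for the same loci uncorrected. Leaving out each mouse in turn gave 1 to 126 calls, and the count stayed within 1.5 times of 23 only without treated Ncoa5+/- replicate 1 (33) or replicate 5 (16). Interaction calls numbered 2 with no filter and 5 with loci at 0 in a whole group kept, and 0 to 1 without each mouse. The Cdkn1a difference was -0.46 (exact permutation p = 0.116) with a pseudocount of 5, -0.43 (0.646) with genotype left out and -0.64 (0.0556) after GC correction, and ran from -0.79 to -0.39 without each mouse. Ncoa5 changed sign to -0.0034 with genotype left out and -0.0354 without the libraries over 70% in 50 loci, and ran from -0.0808 to 0.0476 without each mouse. Over 829 pairs of a named gene and a setting, 470 kept sign and side of the threshold, 332 lost the call, 20 gained it and 7 changed sign. Cause was not tested for any of these. No paired analysis was possible because the labels carry no replicate numbers that mice share between groups. Depth in reads is unknown, so no limit of detection is given.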
